A study of Mus musculus with 8 samples.

Results

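The genes described are the KLHL, KBTBD and KLHDC families, whose products carry kelch repeats. They were chosen by symbol and by count: gene rows named Klhl, Kbtbd or Klhdc followed by a number, with at least 10 counts in at least 4 of the 8 libraries. Of 51 such rows in the table, 37 passed (25 of 36 Klhl, 7 of 9 Kbtbd and 5 of 6 Klhdc genes), out of 55414 gene rows in all. The count requirement did not compare the groups, but it used raw counts, and the libraries of 1 group alone could meet it. The libraries were made from red pulp macrophages, the iron-recycling macrophages of the spleen, sorted from wild-type C57BL/6J mice. In 1 group of 4 libraries the spleens were taken 2 h after cecal ligation and puncture (CLP), a surgical model of sepsis in which gut bacteria leak into the abdomen, and in the other group of 4 they were taken 2 h after sham surgery. Whether the 4 libraries of a group represent 4 mice is not stated, and the spread that p-values rest on may therefore be technical.

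Most KLHL and KBTBD proteins join a BTB domain, which binds the scaffold Cullin-3, to a kelch propeller, which binds a substrate. Such an adaptor brings its substrate to the ubiquitin ligase that Cullin-3 forms with the RING protein Rbx1, and the ligase is switched on when Nedd8 is attached to the cullin. The KLHDC proteins have kelch repeats without the BTB domain, and several of them serve Cullin-2 ligases that recognise the carboxyl ends of proteins. The name Cullin-3 adaptors therefore covers the KLHL and KBTBD members and not the 5 KLHDC members, which are described separately.

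Total counts per library lay between 15392992 and 25665633, and levels are given as CPM, the count scaled to a common library size with TMM factors, so that 1 CPM stands for 15.1 to 27.6 reads. The 12 red pulp macrophage marker genes summed to between 42475 and 56957 CPM in every library, against 132 to 227 CPM for 10 B cell markers. By gene, 6 of the 12 were called higher after CLP, most of all Spic (log2 fold change 0.90). Another 2, Mertk (-0.51) and Slc40a1 (-0.40), were called lower. Sham replicate 4 stood apart in erythroid markers, which summed to 1411 CPM there, 279 to 475 CPM in the other sham libraries and 723 to 1251 CPM after CLP. Of 9 tested erythroid markers 3 were called higher, Hbb-bs (log2 fold change 1.57), Alas2 (1.57) and Hbb-bt (1.28), and 0 lower. Of 8 endothelial and stromal markers 2 were called higher, Col1a1 (1.22) and Col1a2 (1.33), and 0 lower. Neutrophil markers (102 to 175 CPM after CLP, 76.7 to 92.1 in sham), platelet markers (19.3 to 24.4 and 7.02 to 8.94) and plasma cell markers (897 to 983 and 282 to 450) were also higher in sum after CLP. So were dendritic cell markers (85.5 to 95.6 and 67.8 to 81.5), with Zbtb46 (log2 fold change 0.73) and Bst2 (0.49) called higher and Clec9a (-0.76) lower. Most of the neutrophil sum was Csf3r (92.0 to 148 CPM after CLP, 73.6 to 86.2 in sham). By gene, 3 of 4 tested neutrophil markers were called higher and 0 lower. These were Csf3r (log2 fold change 0.49), S100a8 (2.14, 3.78 to 10.1 CPM after CLP and 0.724 to 2.51 in sham) and S100a9 (2.29, 4.86 to 16.4 and 1.27 to 3.67). In the plasma cell sum the difference lay mainly in Prdm1 (540.5 to 729 CPM after CLP, 64.1 to 144 in sham). Sdc1, at a low level, was also called higher (0.728 to 2.69 CPM after CLP, 0.165 to 0.796 in sham). Jchain and Xbp1 were not called (adjusted p = 0.695 and 0.799 in edgeR). No listed marker was at 0 in all libraries. The part of such RNA in the results was not tested. In bulk RNA, fewer cells of a type and less RNA per cell cannot be told apart.

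Of the 37 members, 35 had enough counts to be tested between CLP and sham, and 25 of them were lower after CLP while 0 were higher (Benjamini-Hochberg adjusted p under 0.05 in edgeR's quasi-likelihood test). Across all 14004 genes tested, 23.5% were called lower and 19.8% higher, or 43.3% in either direction. The median log2 fold change was -0.78 over the tested members and -0.05 over all genes. At an unadjusted p under 0.05 the count of higher members was also 0, and it was 0 in DESeq2 and limma-voom. Among the 25, 14 fell by at least 2-fold, a size of fall found in 8.36% of all genes tested. In 22 of the 35, every CLP library lay under every sham library, which was the case for 22.8% of all genes. As shares of all counts, with no scaling factor, the 37 members together took 0.155% to 0.173% of each sham library and 0.0728% to 0.0834% of each CLP library. Klhl9 and Klhl24 made up much of that sum, and without them the summed level was 799 to 842 CPM in sham and 498 to 572 CPM in CLP libraries.

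**Figure D1:**
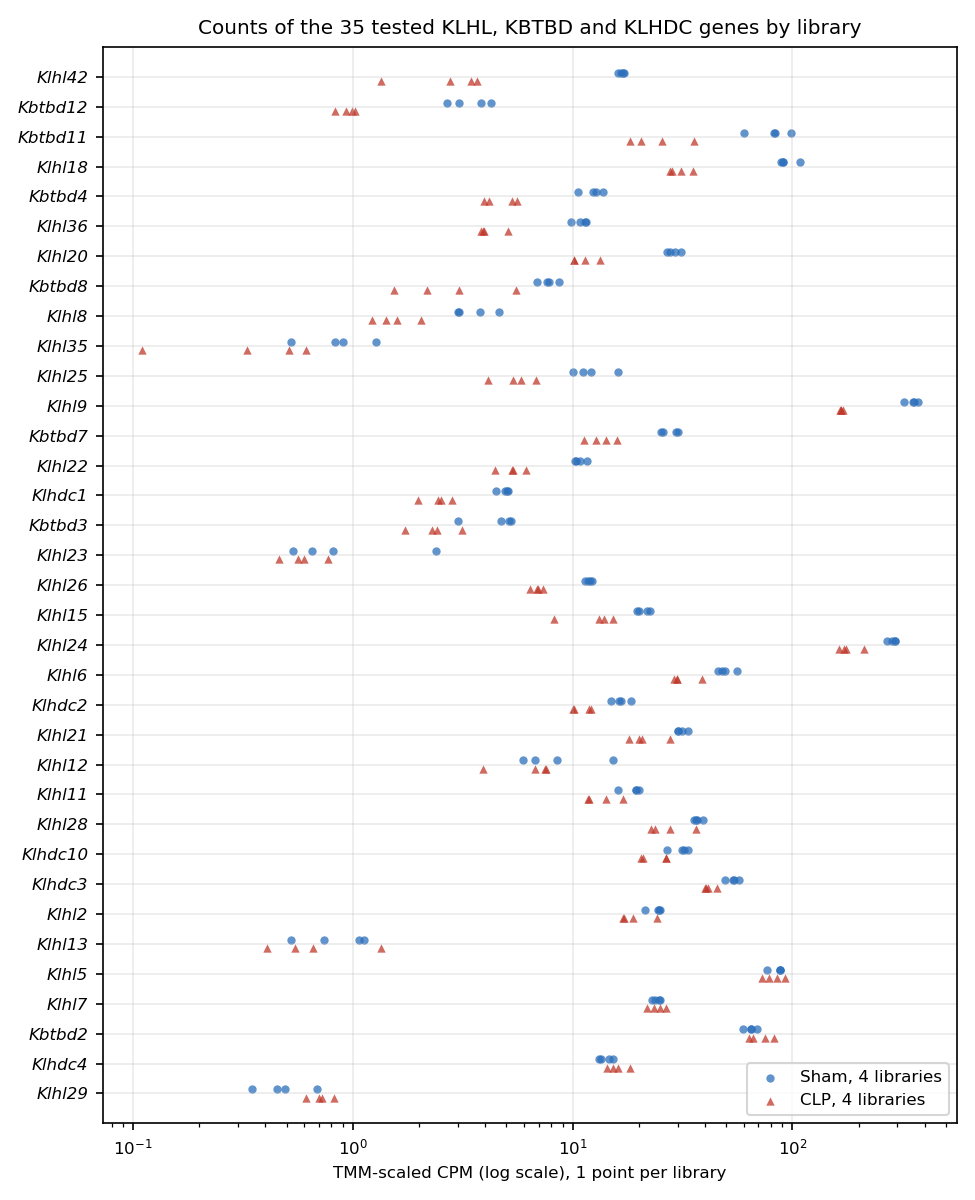
TMM-scaled CPM of the 35 tested genes on a log scale, 1 point per library, with 4 sham libraries (circles) and 4 CLP libraries (triangles), ordered by fold change. For 22 genes all CLP points lie to the left of all sham points, and for Klhl5, Klhl7 and Kbtbd2 the points of both groups overlap.

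The share of lower genes depended on abundance in the table as a whole. Between their quartiles the tested members had a mean of 6.47 to 29.8 CPM, and of the 3900 tested genes in that range 34.6% were lower and 11.3% higher. Of the 17 members in the range, 13 were lower. Between the quartiles by exon length they spanned 3342 to 7097 bases, where 27.1% of all tested genes were lower, against 10 of 17 members. Where both ranges applied, 39.0% of 1797 genes were lower. Over the 35 members themselves the fold change had little relation to mean CPM (Pearson r = 0.08, Spearman rho = 0.20) or exon length (r = -0.06, rho = 0.02), given as descriptions across genes of the same libraries. Scaling also mattered: when libraries were scaled by their totals instead (called library totals here), all fold changes shifted by a median of -0.32, 46.0% of all genes were lower and 9.18% higher, and 29 members were lower and 0 higher.

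**Figure D2:**
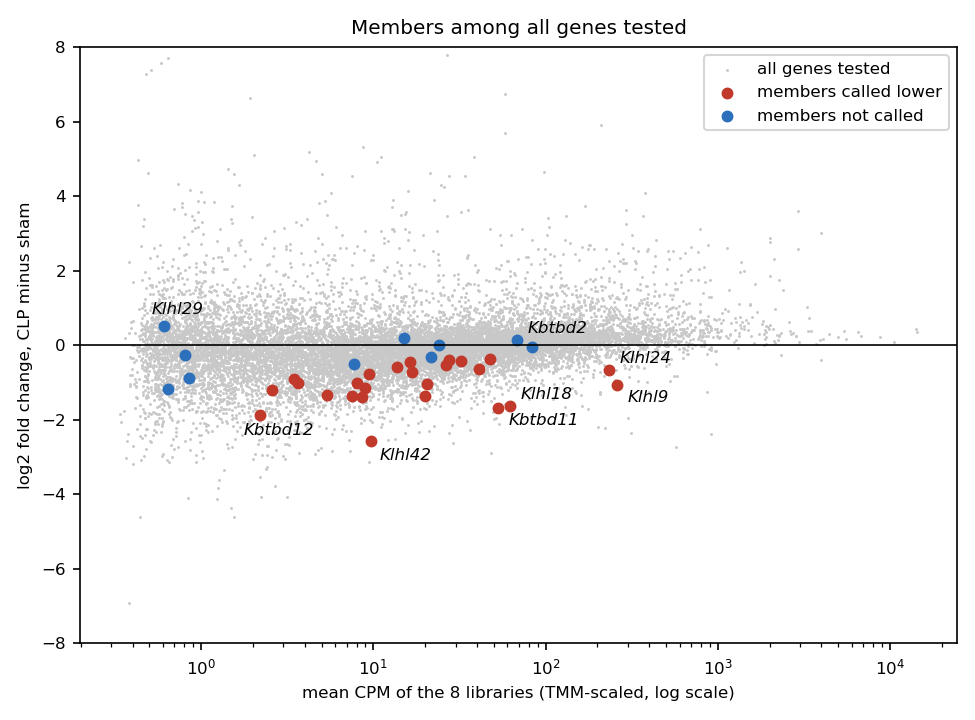
Log2 fold change (CLP minus sham) against mean CPM (log scale) for all 14004 tested genes in grey, with the 25 members called lower in red and the 10 tested members not called in blue. The members called lower, which are below 0 by definition, range from 2.19 CPM (Kbtbd12) to 259 CPM (Klhl9). Kbtbd2, Klhdc4 and Klhl7, which were not called, lie above 0 within that range.

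The sequence at the start sites was not used in choosing the members. RefSeq promoters of build GRCm38.p6, an older build than the mm39 named for the counts, were matched by symbol for 32 of the 37 members, as 300 bases each from 250 before to 50 after the start (the window listed first for a gene). The median number of CG dinucleotides was 22 over these members, 21 over 9787 tested genes with a promoter entry and 7 over all 27025 genes in the table. The ETS core CCGGAAG, searched on both strands, was in 9 of 32 member windows (28.1%), 18.9% of tested genes and 9.12% of all genes. The E-box CACGTG was in 3 (9.38%) against 10.2% of tested genes, the AP-1 letters TGACTCA in 2 (6.25%) against 3.48%, the CRE letters TGACGTCA in 1 (3.12%) against 3.33%, and the forkhead letters TGTTTAC in 0 against 2.50%. No 2 of these motifs contain one another. A match describes letters in a window and not a bound site.

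Promoter windows of 5 members are shown, with the motif letters in capitals: Kbtbd12 as the largest fall with a window, Klhl18 and Klhl20 as windows with a match among the larger falls, Klhl9 as the most abundant member and Kbtbd2 as an abundant member that was not called. They are read 5′ to 3′ along the gene's strand, which is the minus strand for all of them, at chr6:88627380-88627679, chr9:110476645-110476944, chr1:161131430-161131729, chr4:88722459-88722758 and chr6:56797164-56797463 in that order.
Kbtbd12: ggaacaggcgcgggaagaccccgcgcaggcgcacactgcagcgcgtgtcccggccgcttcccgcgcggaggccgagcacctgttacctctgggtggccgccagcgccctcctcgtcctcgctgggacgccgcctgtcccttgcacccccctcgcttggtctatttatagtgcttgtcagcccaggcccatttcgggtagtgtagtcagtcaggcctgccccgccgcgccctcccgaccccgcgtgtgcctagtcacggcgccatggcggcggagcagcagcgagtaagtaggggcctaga
Klhl18: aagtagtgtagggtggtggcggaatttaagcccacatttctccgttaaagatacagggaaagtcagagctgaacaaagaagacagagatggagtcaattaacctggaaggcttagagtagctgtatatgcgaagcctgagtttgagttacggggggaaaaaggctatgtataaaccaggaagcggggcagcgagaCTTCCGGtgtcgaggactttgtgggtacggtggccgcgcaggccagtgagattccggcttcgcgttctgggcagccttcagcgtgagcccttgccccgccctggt
Klhl20: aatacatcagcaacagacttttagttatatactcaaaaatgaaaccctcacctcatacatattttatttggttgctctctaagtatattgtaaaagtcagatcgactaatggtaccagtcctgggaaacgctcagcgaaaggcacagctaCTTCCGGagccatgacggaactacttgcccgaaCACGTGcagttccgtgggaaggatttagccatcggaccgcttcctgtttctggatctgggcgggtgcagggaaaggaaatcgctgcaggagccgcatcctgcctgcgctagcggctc
Klhl9: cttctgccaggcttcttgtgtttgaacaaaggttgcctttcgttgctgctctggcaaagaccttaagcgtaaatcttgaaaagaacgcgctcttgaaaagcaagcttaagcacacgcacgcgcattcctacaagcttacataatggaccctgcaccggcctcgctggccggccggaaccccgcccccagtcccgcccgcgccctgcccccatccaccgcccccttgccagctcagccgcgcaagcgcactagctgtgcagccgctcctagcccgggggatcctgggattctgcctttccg
Kbtbd2: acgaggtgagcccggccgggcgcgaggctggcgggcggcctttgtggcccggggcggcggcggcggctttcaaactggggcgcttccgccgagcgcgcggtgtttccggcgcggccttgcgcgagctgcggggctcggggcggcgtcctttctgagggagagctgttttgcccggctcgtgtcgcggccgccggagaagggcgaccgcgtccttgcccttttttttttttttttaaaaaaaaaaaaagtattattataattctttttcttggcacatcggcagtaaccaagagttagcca
The Klhl18 window holds 1 ETS core, and the Klhl20 window holds an ETS core and an E-box, with both ETS cores read on the opposite strand (CTTCCGG). None of the motifs searched is in the windows of Kbtbd12, Klhl9 and Kbtbd2, of which Kbtbd12 and Klhl9 fell and Kbtbd2 was not called. The windows of Klhl36 and Kbtbd8, also among the larger falls, hold none either. That of Kbtbd4, another of the larger falls and not shown, holds the ETS core on both strands.

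Several members are known as adaptors in cell division, here taken in turn and grouped after their values were seen, as are the role groups that follow. Klhl42, which serves a Cullin-3 ligase for the microtubule-severing enzyme katanin, was at 17.2, 16.9, 16.5 and 16.1 CPM in sham replicates 1 to 4 and at 1.35, 2.76, 3.67 and 3.44 CPM in the CLP libraries. Its sham values were nearly level, the CLP values ranged more widely, and the groups lay far apart. It fell 5.92-fold, the largest fall among tested members (log2 fold change -2.56, SE 0.24, adjusted p = 1.37e-05). Klhl18, an adaptor for the mitotic kinase Aurora A, had 88.9, 90.3, 90.2 and 108 CPM in sham replicates and 31.2, 35.2, 27.7 and 28.2 CPM after CLP. Sham replicate 4 was the highest, and every CLP library was far below every sham library. The fall of Klhl18 was 3.08-fold (log2 fold change -1.62, SE 0.10, adjusted p = 1.36e-06).

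Klhl9, whose product acts with KLHL13 on Aurora B, was the most abundant member per length, at a mean of 62.0 CPM per kb of exon over the 8 libraries. Its level was 359, 353, 320 and 373 CPM in sham and 166, 166, 165 and 169 CPM in CLP libraries. The CLP libraries differed by little from each other, and both groups were well separated, with a fall of 2.11-fold (log2 fold change -1.08, SE 0.07, adjusted p = 1.46e-06). An unnamed gene model on the opposite strand shares 15.8% of the exon bases of Klhl9, and another shares 20.5% of those of Klhl21. Its partner Klhl13 was near the detection limit, at 0.409 to 1.35 CPM in CLP and 0.524 to 1.12 CPM in sham libraries, and was not called (-0.26, SE 0.42, adjusted p = 0.65). Klhl22, an adaptor for the mitotic kinase PLK1 and for DEPDC5 of the mTORC1 pathway, fell from 10.7 ± 0.6 to 5.31 ± 0.69 CPM (SD, n = 4 each, log2 fold change -1.01, adjusted p = 0.000191). Klhl21, which has been linked to Aurora B and to the NF-kB kinase IKK-beta, had 33.5, 30.2, 31.5 and 30.3 CPM in sham replicates and 18.0, 20.04, 27.6 and 20.6 CPM after CLP. CLP replicate 3 was closest to the sham range, and the fall was 1.45-fold (-0.54, SE 0.13, adjusted p = 0.00502).

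Other members act on signalling proteins. Klhl20, an adaptor for the autophagy kinase ULK1, the death-associated kinase DAPK1 and the PML protein, had 26.9, 27.6, 29.4 and 31.2 CPM in sham replicates and 10.1, 11.4, 13.3 and 10.2 CPM after CLP. The groups did not overlap, and Klhl20 fell 2.55-fold (-1.35, SE 0.11, adjusted p = 7.81e-06). Klhl25, an adaptor for the translation repressor 4E-BP1, fell from 12.4 ± 2.6 to 5.53 ± 1.10 CPM (-1.16, adjusted p = 0.000637). Kbtbd7, which acts on the Rac activator TIAM1, fell from 27.6 ± 2.6 to 13.5 ± 2.0 CPM (-1.03, adjusted p = 7.05e-05). Kbtbd2, which directs degradation of the p85-alpha subunit of PI3-kinase, was not called: it had 64.6, 59.5, 65.0 and 69.1 CPM in sham replicates and 63.1, 65.8, 82.2 and 75.4 CPM after CLP. The groups overlapped, and its log2 fold change of 0.15 (SE 0.09, adjusted p = 0.224) became -0.17 with library totals.

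Klhl6, a gene known from B lymphocytes, had 47.8, 49.5, 45.9 and 56.2 CPM in sham replicates and 29.7, 38.9, 29.8 and 28.8 CPM after CLP. CLP replicate 2 was the highest of its group but stayed under every sham library, and Klhl6 fell 1.57-fold (-0.65, SE 0.11, adjusted p = 0.000754). The 10 B cell markers summed to 132 to 208 CPM in CLP and 136 to 227 CPM in sham libraries. Of them 1, Cd79b (-0.58), was called lower and 0 were higher. In every library the B cell marker Ms4a1 (1.73 to 4.77 CPM) was below Klhl6 and the B cell marker Ighm (79.7 to 153 CPM after CLP, 75.1 to 161 in sham) was above it. The part of B cell RNA in the Klhl6 result was not tested.

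Klhl2 and Klhl3 encode adaptors for the WNK kinases, which control ion transport. Klhl2 had 24.6, 24.5, 25.1 and 21.3 CPM in sham replicates and 17.0, 17.2, 24.3 and 18.7 CPM after CLP. CLP replicate 3 lay within the sham range, and Klhl2 was not called (-0.31, SE 0.13, adjusted p = 0.0714), although a lower call came with library totals (-0.62, adjusted p = 0.00177), from the fit lacking CLP replicate 3 (-0.43, adjusted p = 0.00454) and from that with 1 surrogate variable (-0.34, adjusted p = 0.0328). Klhl3 was too low to be tested, with 12, 21, 16 and 15 counts in sham and 5, 9, 5 and 0 counts in CLP libraries. Klhl12, which acts on the COPII coat of secretory vesicles and on Dishevelled, had 5.97, 6.75, 8.45 and 15.3 CPM in sham replicates and 6.73, 7.57, 7.45 and 3.90 CPM after CLP. Sham replicate 4 was the highest for Klhl12, and the other sham libraries overlapped with CLP. Its log2 fold change of -0.50 (SE 0.32, adjusted p = 0.231) became -0.11 without that library (adjusted p = 0.758).

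Further members have other known targets or roles. Kbtbd4, an adaptor for the CoREST histone deacetylase complex, had 12.8, 12.4, 10.5 and 13.8 CPM in sham replicates and 4.16, 3.94, 5.59 and 5.29 CPM after CLP. It fell 2.61-fold with no overlap (-1.39, SE 0.16, adjusted p = 5.53e-05), but 55.6% of its exon bases are shared with Ndufs3 and Ptpmt1 on the opposite strand, and the strand setting of the counting is not given. Kbtbd8, known from control of ribosome production in neural crest, had 7.78, 7.66, 6.87 and 8.68 CPM in sham replicates and 2.18, 1.53, 5.54 and 3.04 CPM after CLP. CLP replicate 3 was the highest of a wide CLP range that stayed below sham (-1.33, SE 0.32, adjusted p = 0.00692). Klhl15, an adaptor for a regulatory subunit of the phosphatase PP2A, fell from 21.0 ± 1.4 to 12.7 ± 3.1 CPM (-0.73, adjusted p = 0.00439). Klhl7, mutated in a form of retinitis pigmentosa, was not called, at 23.1 to 24.9 CPM in sham and 21.8 to 26.6 CPM in CLP libraries (0.01, SE 0.09), but scaling by library totals gave a lower call (-0.31, adjusted p = 0.0217).

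Klhl24, an adaptor for keratin 14 in skin, was second to Klhl9 in level per length (22.9 CPM per kb), followed by Klhdc3 (18.4), Kbtbd2 (16.7) and Klhl6 (15.6). It had 270, 294, 285 and 291 CPM in sham replicates and 172, 212, 175 and 163 CPM after CLP. CLP replicate 2 was the highest of its group, and the groups did not overlap (1.58-fold lower, log2 fold change -0.66, SE 0.09, adjusted p = 0.000137).

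**Figure D3:**
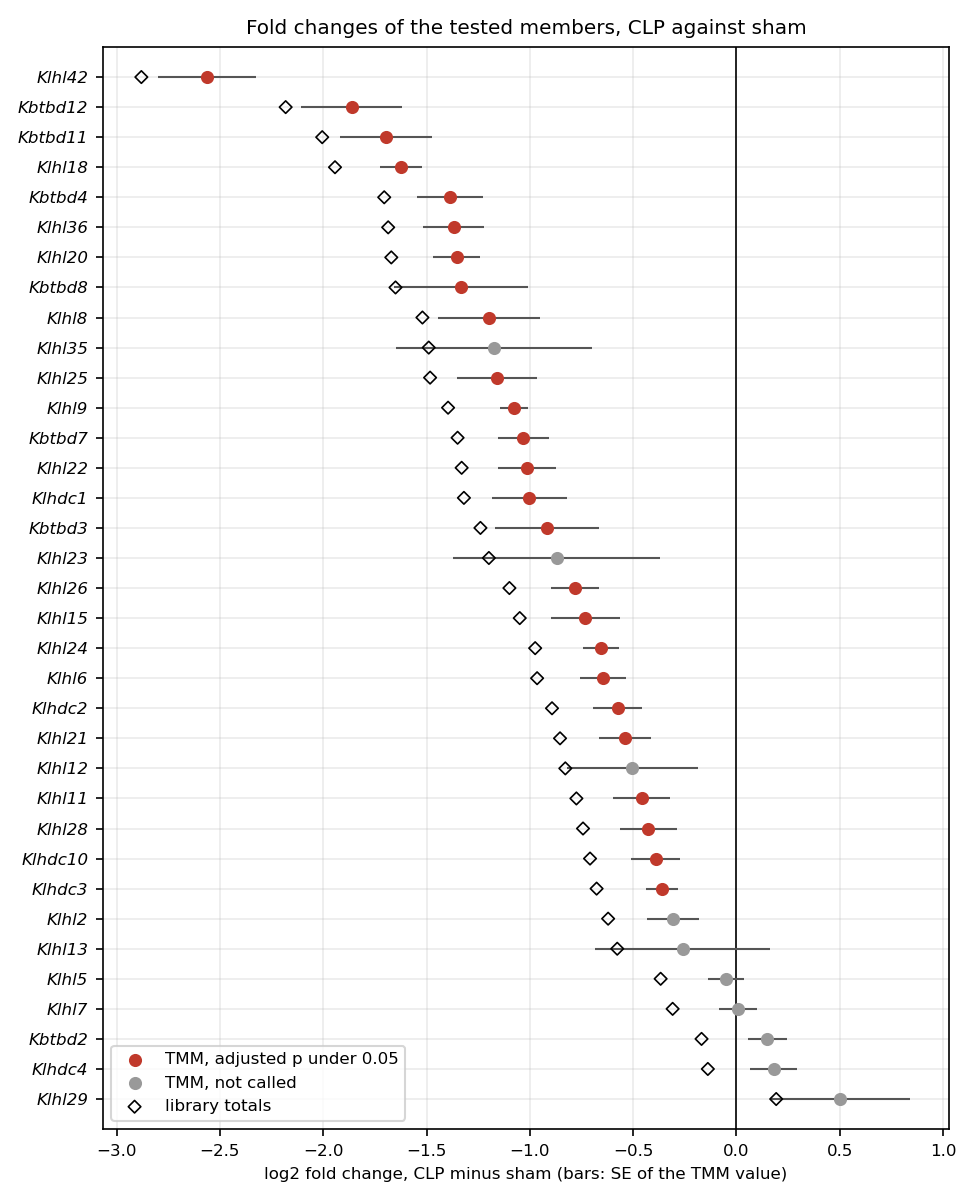
Log2 fold change (CLP minus sham) of the 35 tested members with TMM scaling (filled points, bars are SE) and with library totals (open diamonds). With TMM scaling 31 members lie below 0 and 4 above it, from -2.56 for Klhl42 to 0.50 for Klhl29, and with library totals only Klhl29 lies above 0.

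Other members with large falls have less settled roles. Kbtbd11 had 82.3, 82.9, 98.3 and 60.3 CPM in sham replicates and 20.4, 25.5, 35.6 and 18.2 CPM after CLP, with sham replicate 4 the lowest of its group. It fell 3.24-fold (-1.69, SE 0.22, adjusted p = 0.000343), and 24.8% of its exon bases are shared with an unnamed gene model on the opposite strand. Kbtbd12 had 3.04, 3.83, 2.68 and 4.23 CPM in sham replicates and 0.833, 1.02, 0.987 and 0.926 CPM after CLP, which rest on 13 to 20 counts each. Even so the groups stayed apart (3.64-fold lower, -1.86, SE 0.24, adjusted p = 0.000126). Klhl36 had 9.81, 11.3, 11.5 and 10.8 CPM in sham replicates and 3.84, 5.06, 3.95 and 3.90 CPM after CLP (-1.37, SE 0.15, adjusted p = 3.49e-05). The other called members of this kind were Klhl8 (-1.20), Kbtbd3 (-0.92) and Klhl26 (-0.78), whose groups overlapped only for Kbtbd3.

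Among the smaller falls, those of Klhl11, Klhl28 and Klhdc10 lost their call in some alternatives, whereas Klhdc3, Klhl21 and Klhdc2 were called in all 17. Klhl11, the target of autoantibodies in a form of encephalitis, had 19.5, 19.5, 20.04 and 16.1 CPM in sham replicates and 11.9, 11.7, 16.9 and 14.2 CPM after CLP, and the groups overlapped (-0.46, SE 0.14, adjusted p = 0.0195). The call ended when any of sham replicates 1, 2 and 3 or of CLP replicates 1 and 2 was left out, at an adjusted p of at most 0.0631. Klhl28 had 39.2, 35.8, 36.6 and 36.8 CPM in sham replicates and 23.6, 22.6, 36.4 and 27.8 CPM after CLP, with CLP replicate 3 inside the sham range (-0.43, SE 0.14, adjusted p = 0.0257). That call ended when any of sham replicates 1, 2 and 3 or of CLP replicates 1, 2 and 4 was left out, at an adjusted p of at most 0.0759.

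Klhl5, which was abundant at 11.9 CPM per kb, was not called: 76.6 to 88.1 CPM in sham and 73.0 to 92.8 CPM in CLP libraries (-0.05, SE 0.09). It was called lower with library totals (-0.37, adjusted p = 0.00597). Klhl29 had the highest fold change of all tested members (0.50, SE 0.34, adjusted p = 0.263), at 0.614 to 0.822 CPM in CLP and 0.350 to 0.688 CPM in sham libraries, which is 6 to 19 counts. Klhl23 was at 0.535 to 0.816 CPM in sham replicates 1 to 3, 2.38 CPM in sham replicate 4 and 0.463 to 0.769 CPM in CLP libraries. Its fold change of -0.87 (adjusted p = 0.188) became -0.12 without Sham replicate 4 (adjusted p = 0.842), the library with the high erythroid sum, whose part in the values of Klhl12 and Klhl23 was not tested.

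The count threshold cut through the lowest genes. Just inside it were Klhl3, Klhl35 and Klhl38, each with 4 libraries at 10 counts, of which Klhl3 passed through its sham libraries alone. Klhl35 and Klhl38 each passed through 3 sham libraries and 1 CLP library. The threshold was on raw counts, and 1 CPM stood for 15.1 to 19.6 reads in CLP and 17.2 to 27.6 in sham libraries. Klhl35 was at 0.524 to 1.27 CPM in sham and 0.110 to 0.614 CPM in CLP libraries and was not called (-1.17, SE 0.47, adjusted p = 0.0655), but was called lower with library totals (adjusted p = 0.0209) and without CLP replicate 2 (0.0453). Klhl38 was not tested, at 4 to 17 counts in sham and 3 to 18 counts in CLP libraries, and 65.4% of its exon bases overlap an unnamed gene model on the opposite strand. Just outside was Kbtbd6, with 35 counts in sham replicate 4 and 10 or fewer in each other library. Klhl41 was also outside, with 8, 7, 7 and 6 counts in CLP and 4, 6, 0 and 0 counts in sham libraries. Its counts thus leaned towards CLP, a difference that was not tested. The remaining 12 genes, Kbtbd13, Klhdc9, Klhl1, Klhl10, Klhl14, Klhl30, Klhl31, Klhl32, Klhl33, Klhl34, Klhl4 and Klhl40, had 0 to 5 counts in every library.

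Among the 5 KLHDC members, 4 were lower and 0 higher, against 23.5% and 19.8% of all genes tested, and Klhdc4 was not called. Their median log2 fold change was -0.39, and that of the 30 tested KLHL and KBTBD members was -0.89, a difference that was not tested. Klhdc3, a Cullin-2 receptor for carboxyl-terminal degrons, had 53.8, 54.0, 49.3 and 57.1 CPM in sham replicates and 41.1, 40.5, 45.5 and 39.9 CPM after CLP. The fall was small but free of overlap (1.28-fold, -0.36, SE 0.08, adjusted p = 0.00327), and 10.6% of its exon bases are shared with Mea1 on the opposite strand. Klhdc2, another such receptor, had 14.9, 16.2, 18.4 and 16.6 CPM in sham replicates and 10.1, 12.1, 11.9 and 10.2 CPM after CLP (-0.58, SE 0.12, adjusted p = 0.00228).

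Klhdc1, which recognises truncated selenoproteins, fell from 4.88 ± 0.27 to 2.43 ± 0.35 CPM (-1.003, adjusted p = 0.00112). Klhdc10, linked to the stress kinase ASK1, had 32.2, 26.8, 31.5 and 33.6 CPM in sham replicates and 26.6, 26.5, 20.6 and 20.8 CPM after CLP. Its groups only just separated (-0.39, SE 0.12, adjusted p = 0.019), and leaving out CLP replicate 4 or any of sham replicates 1, 3 and 4 ended the call, at an adjusted p of at most 0.0722. Klhdc4 was not called, at 13.1 to 15.3 CPM in sham and 14.4 to 18.3 CPM in CLP libraries (0.18, SE 0.11, adjusted p = 0.225, and -0.14 with library totals).

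Genes of the ligase that the KLHL and KBTBD proteins serve were called in both directions with TMM scaling, 6 lower and 7 higher of 26 genes of the Cullin-3 core and its neddylation (median log2 fold change 0.06), but 13 lower and 1 higher with library totals. Over all genes the shares were 23.5% lower and 19.8% higher with TMM scaling and 46.0% and 9.18% with library totals, so the counts of the ligase genes with TMM scaling were near those of the whole table. Cul3 itself had 117, 113, 112 and 112 CPM in sham replicates and 147, 136, 151 and 147 CPM after CLP, all CLP libraries above all sham libraries (1.28-fold higher, 0.36, SE 0.06, adjusted p = 0.000903), but it was not called with library totals (0.04, adjusted p = 0.596). Rbx1 had 35.8 ± 3.9 CPM in sham replicates and 35.7 ± 3.4 CPM after CLP and was not called, but scaling by library totals gave a lower call (-0.32, adjusted p = 0.0209). Senp8, the protease that matures and removes Nedd8, had 10.0, 10.7, 11.2 and 14.0 CPM in sham replicates and 2.75, 1.58, 2.74 and 2.18 CPM after CLP. It fell 4.97-fold (-2.31, SE 0.20, adjusted p = 1.00e-05), the largest change in the list. The signalosome subunit gene Cops7b (-0.91) and the neddylation cofactor gene Dcun1d2 (-0.76) also fell. In the list for the Cullin-2 side 3 of 12 genes were lower and 3 higher (9 and 1 with library totals), among them Zer1 (-0.83), Vhl (-0.74) and the elongin C gene Eloc (0.56). That list also held the Cullin-5 gene Cul5 and Rnf7, which were called lower with library totals and not with TMM scaling.

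**Figure D4:**
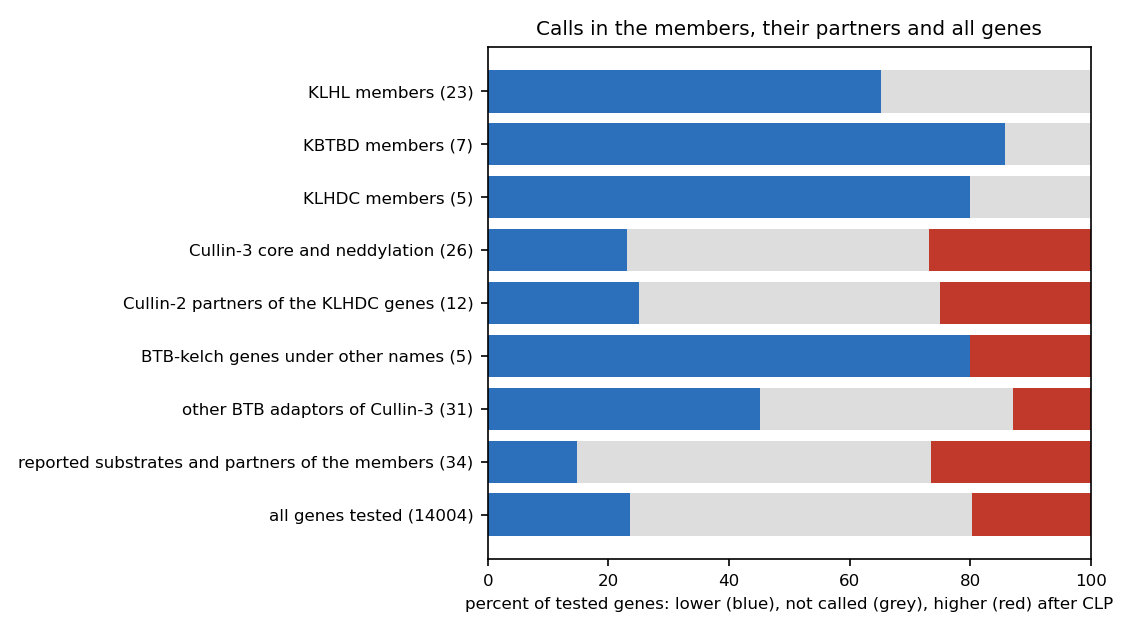
Percent of tested genes called lower (blue), not called (grey) and called higher (red) after CLP, for the members by name group, 5 partner lists and all genes, with the number tested in brackets. The members have 0 higher calls, whereas the Cullin-3 core has 6 lower and 7 higher of 26.

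BTB genes outside the naming rule were examined in the same fit. Keap1, the adaptor that holds the antioxidant factor NRF2 in check, is a BTB-kelch gene under another name. It had 54.0, 51.6, 46.6 and 57.9 CPM in sham replicates and 24.3, 29.0, 28.1 and 28.7 CPM after CLP, and fell 1.91-fold (-0.93, SE 0.09, adjusted p = 2.07e-05). Of the 5 tested genes of this kind, 4 fell, Ipp among them (-0.60), and Enc1 rose from 24.8 ± 2.5 to 41.5 ± 5.5 CPM (0.74, adjusted p = 0.000377), also with library totals (0.42). The list called other BTB adaptors of Cullin-3 holds 31 genes, and whether each of them, Kctd12 included, binds Cullin-3 was not examined. Of the 31, 14 were lower (45.2%, against 23.5% of all genes) and 4 higher (median -0.25). With library totals 20 were lower and 2 higher, where 46.0% of all genes were lower. Btbd3 fell 4.02-fold, whereas Abtb2 rose 4.48-fold and the abundant Kctd12 rose 3.39-fold, from 1036 ± 102 to 3512 ± 232 CPM. Spop, a widely used adaptor of this class, had 115 ± 2 CPM in sham replicates and 118 ± 2 CPM after CLP and was not called (0.03), but was called lower with library totals (-0.29, adjusted p = 0.00196). The Zbtb genes pair the BTB domain with zinc fingers and were added after their values were seen. Of 33 tested, 14 were lower (42.4%, against 23.5% of all genes) and 7 higher (median -0.27). With library totals 22 of them were lower and 3 higher.

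Genes for reported substrates and partners of the members were called in both directions, 5 lower (14.7%) and 9 higher of 34 (median 0.09) with TMM scaling. With library totals 15 were lower and 4 higher. Over all genes the shares were 23.5% lower and 19.8% higher with TMM scaling, and 46.0% and 9.18% with library totals. Pik3r1, which encodes the p85-alpha target of Kbtbd2, rose from 1255 ± 186 to 3523 ± 324 CPM (2.81-fold, log2 fold change 1.49, SE 0.12, adjusted p = 5.20e-06) while Kbtbd2 was not called. Wnk1, a kinase targeted through Klhl2 and Klhl3, rose 1.97-fold from 1446 ± 100 CPM (0.98, adjusted p = 1.17e-05). Dvl2, a Dishevelled gene, fell 2.09-fold (-1.06, adjusted p = 0.00172). These are RNA levels, and no protein was measured.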

How the data were processed

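The series holds RNA-seq of sorted mouse red pulp macrophages, 4 libraries 2 h after CLP and 4 after sham surgery, grouped by sample title. Per the labels' protocols, total RNA was made into stranded TruSeq libraries and sequenced on an Element AVITI. The values used are raw counts per Ensembl gene, which the authors deposited as 1 table. The submitters' processing notes name FastQC, STAR 2.7.10b, featureCounts, DESeq2 and build mm39, with no role for each. For the counting, neither annotation nor strand setting is given in the sources used here.

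Symbols and exon lengths came from GENCODE mouse release M21 (52081 of 55414 IDs matched), an older build used for names, lengths and exon overlap only. Counts were tested with edgeR 4.0.16 (filterByExpr, 14004 genes kept; TMM factors 0.873 to 1.15; robust quasi-likelihood F-test on group), with Benjamini-Hochberg adjustment over all genes tested and a threshold of 0.05. A negative log2 fold change means lower after CLP, and its SE was taken from the fold change and the F statistic (size over root F). The step was tested on simulated data before use. Every library was kept as a replicate, since no pair in a group matched within counting error (chi-square per degree of freedom at least 9.25).

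Alternatives were DESeq2 1.42.0, limma-voom (limma 3.58.1), DESeq2 size factors, library totals, a replicate block, 1 surrogate variable (sva 3.50.0), each library left out and other low-count filters. The members, the gene lists and the rule for named genes were chosen with earlier results of these data known. Under that rule came 8 members from either end of the fold changes, among those called at a mean of at least 1 CPM, the 5 members with the highest CPM per kb, the 3 largest called changes at 5 CPM or more in each partner list, and always Cul3, Rbx1, Keap1 and Spop. Other genes named were chosen after their values were seen.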

Additional observations from a re-analysis of the deposited data

Results flagged for a closer look

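Of 74 sets of 4 libraries examined (37 members in both groups), 7 had 1 library far from the other 3 by Dixon's ratio, where chance flags about 1 in 20 sets. Sham replicate 4 was that library in 4 of them. It was high for Klhl18 (108 CPM, against 88.9 to 90.3 in the other sham libraries) and Klhl23 (2.38 against 0.535 to 0.816 CPM), and low for Klhl11 (16.1 against 19.5 to 20.04 CPM) and Klhl2 (21.3 against 24.5 to 25.1 CPM). Sham replicate 3 was low for Klhl5 (76.6 against 87.7 to 88.1 CPM). CLP replicate 2 was high for Klhl36 (5.06 against 3.84 to 3.95 CPM) and Klhl6 (38.9 against 28.8 to 29.8 CPM). Without Sham replicate 4, 24 members were lower and 0 higher.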

How the results depend on the processing

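Over all alternatives 21 to 29 members were lower and 0 higher, against 25 and 0 in the report. The 21 came from a filter at a mean of 5 CPM, which tested 27 members. Leaving out 1 library at a time gave 22 to 26 lower members, 2639 to 3458 lower and 2310 to 2847 higher genes in the whole table. Of the 25 members called lower, 22 were called in each alternative that tested them, and the exceptions were Klhl11, Klhl28 and Klhdc10. With library totals 6435 genes were lower and 1286 higher, and the Cullin-3 core had 13 lower and 1 higher. The Cullin-2 list, with Cul5 and Rnf7, had 9 and 1, the list of other BTB adaptors 2 higher, and substrates and partners 15 lower and 4 higher. With library totals Kbtbd2 (-0.17), Klhdc4 (-0.14) and Klhl7 (-0.31) turned below 0. Klhl7 also did so with no filter on low counts (-0.017). Leaving out 1 library at a time moved Klhl7 between -0.039 and 0.058 and Klhl5 between -0.111 and 0.0063, across 0 in both cases. None of these 4 genes was called with TMM scaling. The replicate number as a block left 25 members lower and 0 higher. Same-numbered libraries did not deviate together in every pair (correlations of 0.07, -0.04, 0.26 and -0.19 for replicates 1 to 4), so the numbers were not taken to pair them. Depth limits the lowest members, with at most 58 counts in any library: Klhl3, Klhl13, Klhl23, Klhl29, Klhl35 and Klhl38.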
